A study of Mus musculus with 1 sample.

Results

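Solute carriers are the membrane proteins that move amino acids, sugars, ions, metals, nucleotides and vitamins into, out of and within cells, and their genes carry Slc symbols followed by a family number. The poly(A) tails of their mRNAs were measured in wild-type mouse cells by PAIso-seq. Members were all protein-coding genes of the GENCODE annotation whose symbol was Slc and a number, and a member was measured when at least 10 of its transcripts had a tail. The annotation held 371 such genes in 49 families, and 91 of them, in 32 families, were measured, among 6754 nuclear protein-coding genes measured in all. No transcript was seen for 188 members and 1 to 9 transcripts for 92. The total was 612280 protein-coding transcripts, so a count of 0 allows a share of up to 0.000490% (3 counts, counting error only).

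The cells were ICR strain embryonic stem cells (ESCs) that had been turned towards epiblast-like cells for 24 h (24h-EpiLCs). They grew on Matrigel in N2B27 medium that held activin A at 20 ng/ml, bFGF at 12 ng/ml and KSR at 1%. This was 1 group and 1 sample, with 2 replicates marked by barcodes in 1 table. The labels do not say whether the replicates came from separate cultures or which barcode is which, so replicates 1 and 2 are numbered by barcode. The Cnot8 knockout cells of the study were not analysed here, and values are therefore levels within wild-type cells with no test between conditions. Replicate 1 gave 215119 and replicate 2 gave 397161 protein-coding transcripts, and the measured members made up 2236 and 3593 of these. The 4 pluripotency genes had 2114 transcripts, with 303 of Pou5f1 and 1562 of Dppa5a (1143 in replicate 1 and 419 in replicate 2). The 4 formative genes had 558, with 299 of Dnmt3b, 160 of Otx2, 62 of Pou3f1 and 37 of Fgf5. The 4 naïve genes had a similar total of 546, with 501 of Zfp42, 40 of Esrrb, 4 of Tbx3 and 1 of Klf4. By replicate, the formative genes had 233 and 325 transcripts and the naïve genes 151 and 395. The 3 fibroblast markers were at 0 and endoderm and trophoblast markers had 1 transcript each. These counts show pluripotency genes but do not by themselves tell formative from naïve cells.

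The poly(A) tail is added to an mRNA in the nucleus and is shortened in the cytoplasm by deadenylases such as the Ccr4-Not complex, and the shortening often precedes decay. PAIso-seq copies whole transcripts with their tails into circles that are read repeatedly, so that length and base composition are read together, and only reads with at least 7 passes around the circle were used. The Slc25 family, which stands apart among solute carriers, consists of nucleus-encoded carriers that mostly sit in the inner mitochondrial membrane and exchange nucleotides, phosphate and metabolites with the cytosol. The families outside Slc25 mostly act at the plasma membrane or in the membranes of the Golgi, endosomes and lysosomes.

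Tail length was the number of bases in the tail, and the gene tail was the geometric mean over the transcripts of a gene. To show what was read, 5 tails are printed 5′ to 3′ as read in cDNA, where T stands for U in the RNA, with A in lower case and other bases in capitals. The first pair are the tails of middle length of the Slc25 member and of the amino acid transporter with most transcripts, and both were made of A alone. The other tails were picked among tails of 6 to 30 nt for the longest run of T at the end, and show the tail ends that are counted further on.
Slc25a5, 100 nt: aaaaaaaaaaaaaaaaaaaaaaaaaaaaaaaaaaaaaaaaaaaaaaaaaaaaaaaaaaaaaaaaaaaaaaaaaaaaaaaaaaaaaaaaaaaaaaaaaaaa
Slc38a2, 77 nt: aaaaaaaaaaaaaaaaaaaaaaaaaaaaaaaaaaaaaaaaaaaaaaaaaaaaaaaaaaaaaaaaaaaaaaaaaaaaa
Slc25a11, 13 nt: aaaaaaaaaaaTT
Slc38a4, 23 nt: aaaaaaaaaaaaaaaaaaaaTTT
Slc39a10, 17 nt: aaaaaaaaaaaaaaTTT

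The rule asked for the Slc25 carriers to be set beside the other families. The 20 measured Slc25 members had longer gene tails than the 71 other members, with medians of 81.2 nt (quartiles 66.9 and 87.7) and 71.6 nt (quartiles 63.6 and 85.9). For members with at least 10 transcripts in the replicate concerned, the Slc25 median in replicate 1 was 89.5 nt over 10 genes, and that in replicate 2 was 83.5 nt over 16 genes. The other families had 67.0 nt over 36 genes and 71.9 nt over 53 genes. The difference was 9.68 nt with both replicates pooled, 22.5 nt in replicate 1 and 11.6 nt in replicate 2, or 17.0 ± 7.68 nt (SD, n = 2), so it had the same sign in both replicates, although its size moved with the replicate used. It was 4.82 nt with the arithmetic mean per gene and 15.3 nt for genes with at least 30 transcripts. The quartile ranges of the groups overlapped widely. Among the other families, Slc35 had a pooled median of 85.1 nt over 13 members, higher than that of Slc25. By replicate it had 75.4 nt over 5 genes and 86.3 nt over 9 genes, lower than Slc25 in replicate 1 and higher in replicate 2. All 91 members together had a median of 73.2 nt (69.6 and 73.8 nt by replicate) against 75.5 nt (77.2 and 75.8 nt) for the 6663 other protein-coding genes. That difference was −2.25 nt pooled and −7.58 and −2.06 nt by replicate (−4.82 ± 3.90 nt, SD, n = 2), so its sign held in both replicates, but it became 0.02 nt with the arithmetic mean per gene. Over transcripts, the median tail of the members was lower by 7 and 6 nt in the replicates, and the share over 90 nt differed by −3.74 ± 0.25 percentage points (SD, n = 2).

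Gene tails over 75 nt were found for 12 of 20 Slc25 members (60%) and 28 of 71 other members (39.4%), where 51% of all measured protein-coding genes passed this length. Over 100 nt there were 1 Slc25 member and 6 others, against 8.99% of all genes. Under 50 nt there were again 1 and 6, against 12% of all genes. In both replicates at least 10 transcripts were present for 44 members, and 6 of the 10 Slc25 members among them were over 75 nt in both (Slc25a3, Slc25a4, Slc25a5, Slc25a15, Slc25a17 and Slc25a39). Only 3 of 34 others were (Slc29a1, Slc39a4 and Slc9a3r1), and the share for all genes was 38.5%. At or under 75 nt in both replicates were 1 Slc25 member, Slc25a12, and 11 others, against 29.3% of all genes. The 11 were Slc2a3, Slc3a2, Slc4a5, Slc6a8, Slc7a3, Slc12a2, Slc20a1, Slc20a2, Slc23a2, Slc35f2 and Slc38a2, among which are transporters of glucose, amino acids, creatine, ascorbate and phosphate. The remaining 3 Slc25 members and 20 others fell on different sides of 75 nt in the replicates. Genes on either side of this length are a description, since no condition was compared.

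**Figure D1:**
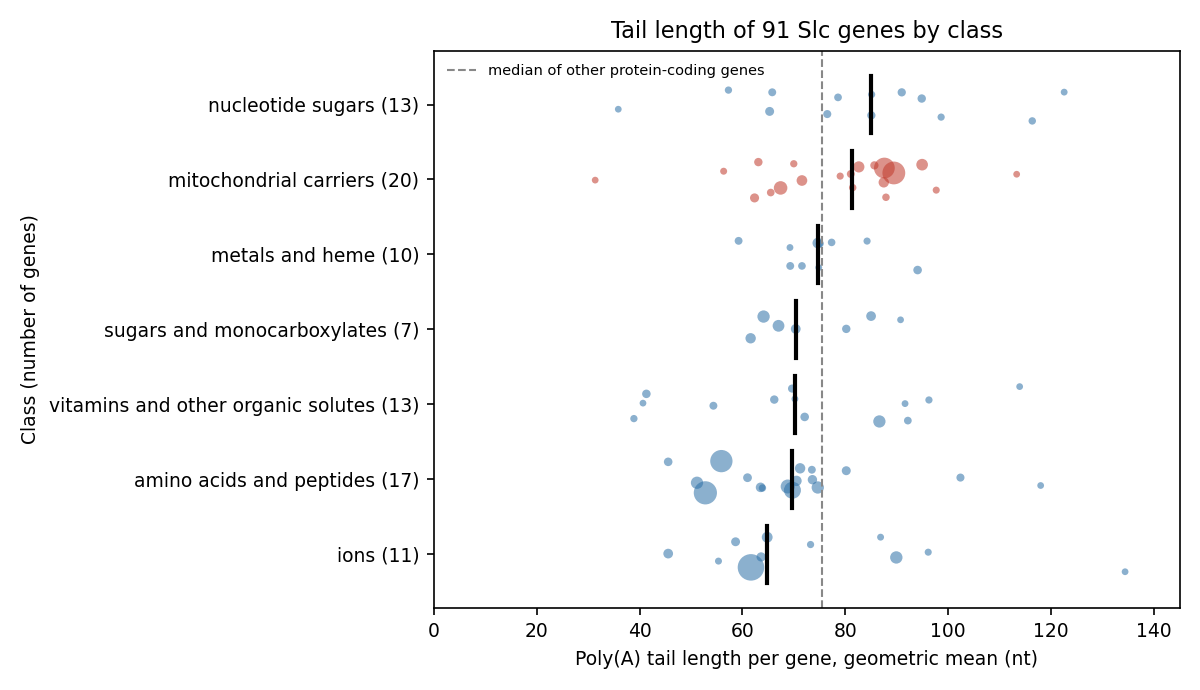
Gene tail lengths of the 91 measured members by substrate class. The x axis gives the geometric mean tail in nt, each point is a gene with an area that grows with its transcripts, black bars are class medians, red marks Slc25, and the dashed line is the median of other protein-coding genes, 75.5 nt. The Slc25 and nucleotide sugar classes have medians above the line and the other 5 classes lie below it.

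Annotated transcripts of the Slc25 members were shorter than those of the other members, with medians of 2270 and 3595 nt for the longest coding transcript and 840 and 1655 nt for its 3′ untranslated region. Across the 6663 other protein-coding genes of this library, gene tail and transcript length had a Spearman rho of −0.37, and within the members rho was −0.36 over the 20 Slc25 genes and −0.15 over the 71 others. Under 2000 nt, where 10 Slc25 members and only 3 others lay, the medians were 86.6 and 89.9 nt. From 2000 to 4000 nt they were 80.03 nt over 6 genes and 70.7 nt over 40 genes, and over 4000 nt they were 68.7 nt over 4 genes and 71.0 nt over 28 genes. With replicates pooled, the Slc25 median was thus higher only in the middle class, and the outer classes rest on 3 and 4 genes. There the sign turned between replicates: under 2000 nt Slc25 was higher in replicate 1 (92.0 and 86.7 nt), and over 4000 nt it was higher in replicate 2 (75.8 and 72.2 nt). Other protein-coding genes had 84.6, 75.4 and 66.8 nt in the 3 classes. The part of transcript length in the difference was not tested.

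**Figure D2:**
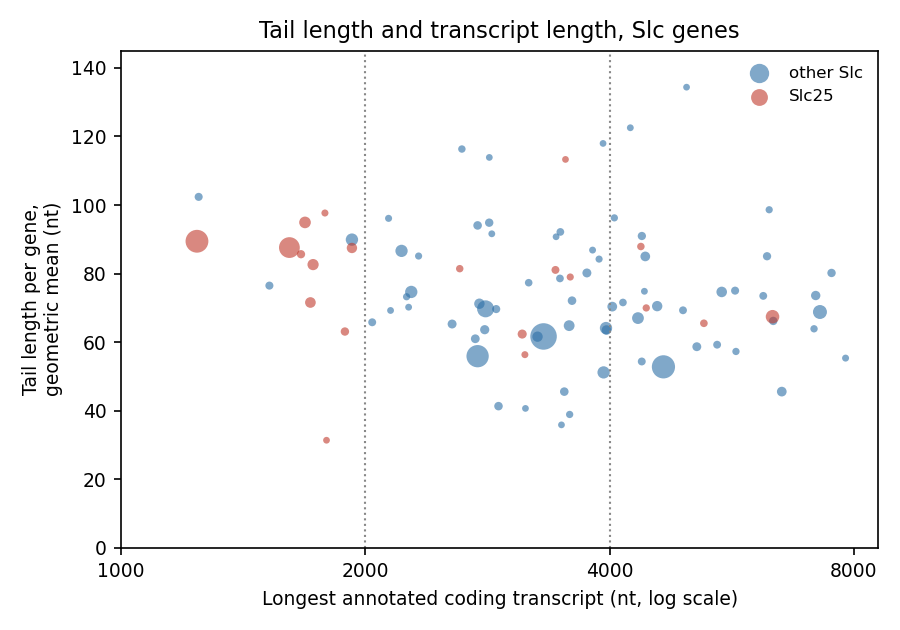
Gene tail length in nt against the length of the longest annotated coding transcript in nt on a log axis, one point per measured member with an area that grows with its transcripts, Slc25 in red and other families in blue. Dotted lines mark 2000 and 4000 nt, and 10 of the 20 Slc25 genes but 3 of the 71 others lie left of the first line.

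Counted over transcripts rather than genes, 53.3% (95% Wilson interval 50.8 to 55.8) of 1542 Slc25 tails and 43.9% (42.5 to 45.4) of 4287 other member tails were over 90 nt, and the median tails were 96 and 81 nt. Replicate 1 gave 54.4% and 43.1%, and replicate 2 gave 52.6% and 44.5%, so the difference of 9.36 percentage points held in both. It rested on few genes, however. Without the 5 members with over 300 transcripts, which are Slc20a1, Slc38a2, Slc7a3, Slc25a5 and Slc25a3, it was 1.38 points, an alternative that was added after the data were seen.

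Among the length classes, the groups stood furthest apart in short tails. Tails of 6 to 30 nt, a length class picked for this comparison after the data were seen, made up 5.32% (4.30 to 6.55) of Slc25 tails and 14.3% (13.2 to 15.3) of the other member tails, with 8.87% in other protein-coding genes. Replicate 1 gave 4.61% and 15.4%, and replicate 2 gave 5.81% and 13.5%. The Slc25 share lay below the share of all other genes and that of the remaining families above it in both replicates. Per gene, the median share was 4.31% over the 20 Slc25 members and 9.86% over the 71 others, against 8.51% over other protein-coding genes. More than 10% of such tails were found in 5 Slc25 members and 35 others, where 41% of all measured protein-coding genes passed this share. Without the 5 members with over 300 transcripts, the shares over transcripts were 6.46% and 11.4%, so the gap between the groups was smaller. Very short tails of 1 to 5 nt were 1.04% (0.640 to 1.68) of Slc25 tails and 2.38% (1.964 to 2.88) of the others. They were fewer in replicate 1, at 0.477% and 1.06%, than in replicate 2, at 1.42% and 3.17%, and this step between replicates was also seen in all other genes, at 0.907% and 2.45%. In replicate 1 the Slc25 share rested on 3 of 629 tails, and its interval (0.162 to 1.39) overlapped that of the others (0.662 to 1.69). Per gene, the median share of tails of 1 to 5 nt was 0.112% in Slc25 members and 0% in the others. The lower Slc25 share over transcripts was thus not seen per gene.

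**Figure D3:**
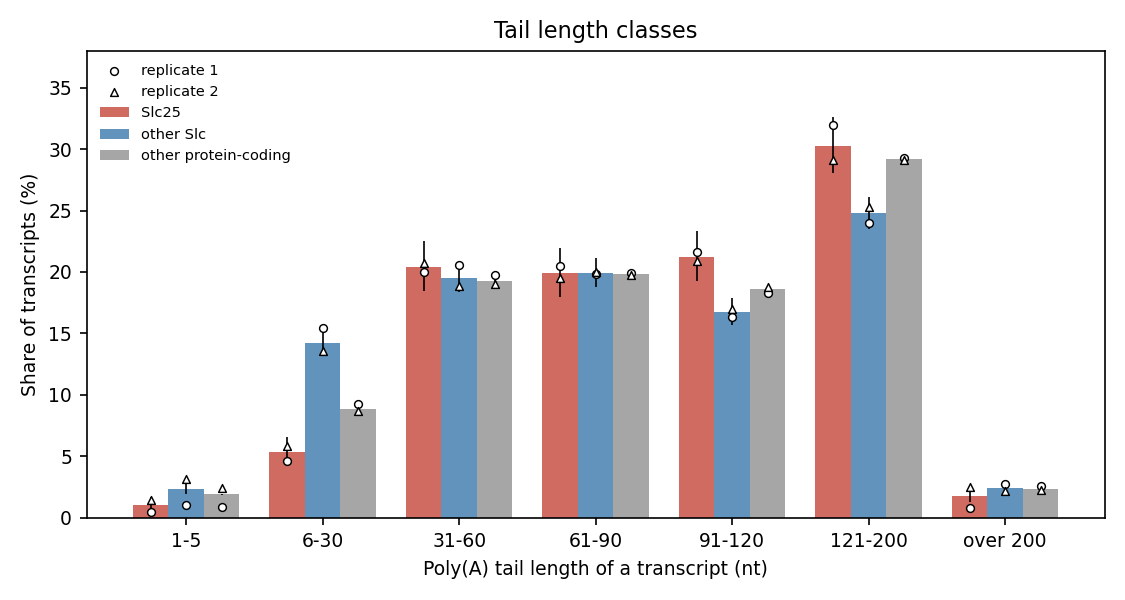
Share of transcripts in % (y axis) in 7 tail length classes in nt (x axis) for Slc25 members, other members and other protein-coding genes. Bars are both replicates pooled with 95% Wilson intervals, circles and triangles are replicates 1 and 2. The groups stand furthest apart at 6 to 30 nt, where they have 5.32%, 14.3% and 8.87%.

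The ADP/ATP and phosphate carriers supply the substrates of ATP synthesis, and Slc25a5 and Slc25a3 had the most transcripts of the family. Slc25a5 (ENSMUSG00000016319, X: 36795651 to 36798807, plus strand, GRCm38), an ADP/ATP exchanger, had 90.4 nt in replicate 1 and 88.5 nt in replicate 2 from 448 transcripts, and was at percentile 78.5 of all measured genes. Slc25a3 (ENSMUSG00000061904, 10: 91116574 to 91124059, minus strand), the phosphate carrier, had 88.5 and 87.0 nt from 366 transcripts. Slc25a4, the ADP/ATP exchanger that is known from heart and muscle, had 92.8 and 84.5 nt from 67 transcripts. The isoforms Slc25a4 and Slc25a5, at 87.5 and 89.4 nt with replicates pooled, changed their order between replicates and did not differ beyond their spread. Only 4.24% of Slc25a5 tails and 4.37% of Slc25a3 tails were of 6 to 30 nt.

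Among the carriers of metabolites, Slc25a39, which brings glutathione into mitochondria, had 104 and 89.0 nt, the longest gene tail of the 8 Slc25 members that reached 15 transcripts in both replicates, and 1 of its 93 tails was of 6 to 30 nt. Slc25a17, a member that works in peroxisomes, had 94.5 and 75.8 nt. Slc25a11, the oxoglutarate and malate carrier, had 92.0 and 63.3 nt, so its replicates lay further apart than most. The aspartate and glutamate carriers were at the short end: Slc25a12 had 58.5 and 73.7 nt from 137 transcripts, and Slc25a13 had 86.3 and 52.7 nt from 44. Of these members, Slc25a12 alone was under 75 nt in both replicates. With fewer transcripts, the citrate carrier Slc25a1 had 73.4 and 103 nt and the ornithine carrier Slc25a15 had 78.6 and 83.2 nt. The other members of the family had gene tails from 31.4 nt (Slc25a38, a glycine carrier with 10 transcripts) to 113 nt (Slc25a25, an ATP-Mg and phosphate carrier, also with 10).

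**Figure D4:**
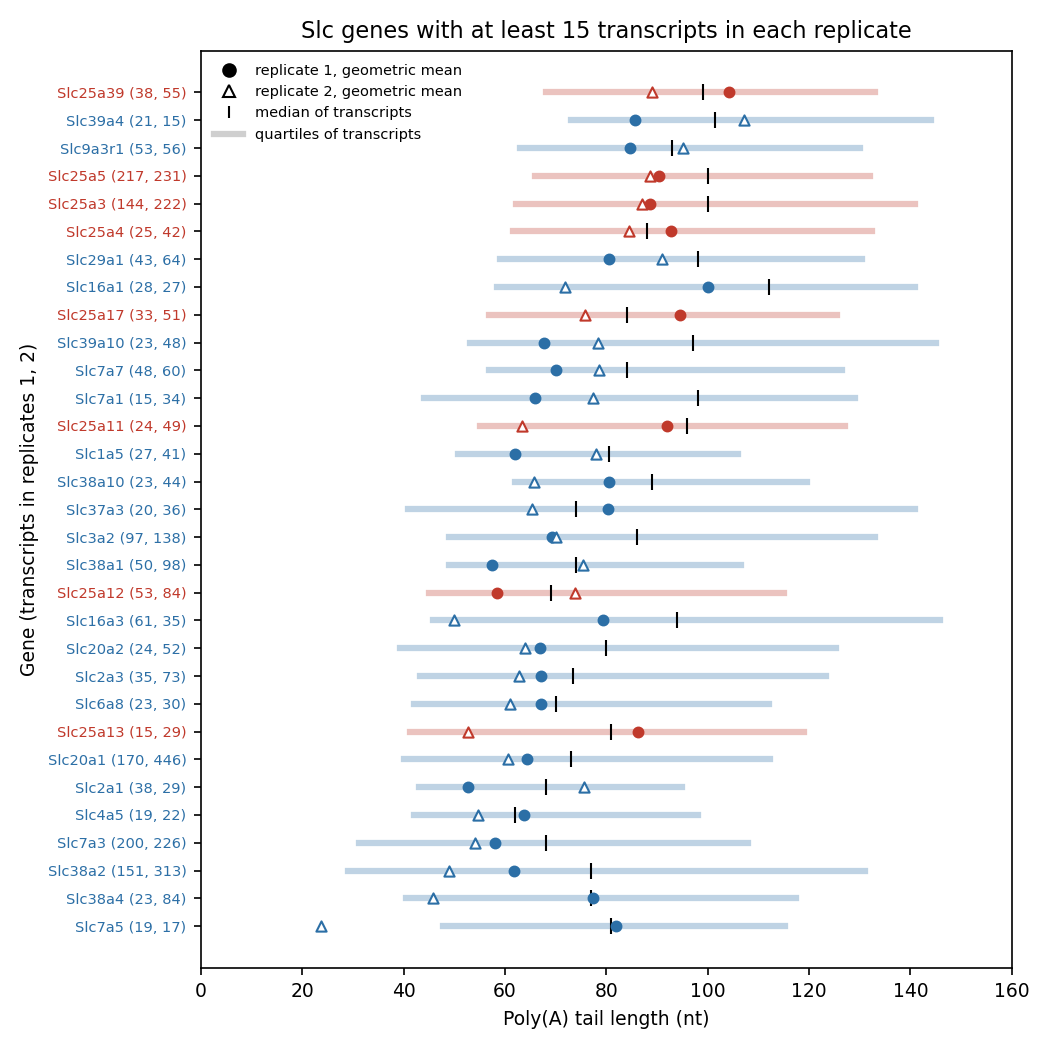
Tail lengths in nt of the 31 members with at least 15 transcripts in each replicate, ordered by the gene tail. Circles and triangles are the geometric means in replicates 1 and 2, pale bars span the quartiles of single transcripts and black ticks their medians, with the transcripts of each replicate in brackets. Slc25a5 and Slc25a3 lie near the top with replicates less than 2 nt apart, and Slc7a5 has the widest gap, from 81.8 to 23.7 nt.

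The 17 members of the amino acid and peptide families had gene tails with a median of 69.7 nt. Over 75 nt were 3 of the 17, against 51% of all measured protein-coding genes, and Slc7a6os, which is not a carrier, was among the 3. Slc38a2 (ENSMUSG00000022462, 15: 96687392 to 96699730, minus strand), which takes up small neutral amino acids, had 61.8 and 48.9 nt from 464 transcripts. Its median tail was 77 nt in each replicate, 21.3% of its tails were of 6 to 30 nt and 5.17% of 1 to 5 nt, and its upper quartile was 131 nt, close to the 132 nt of Slc25a5. Its tails were thus spread more widely towards the short end, not shorter throughout. Slc38a4, of the same family, had 77.4 and 45.7 nt, with 10 of its 107 tails at 1 to 5 nt. With replicates pooled, none of the 4 measured Slc38 members had a gene tail over 75 nt, against 51% of all measured protein-coding genes. By replicate, Slc38a4 and Slc38a10 passed it in replicate 1 (77.4 and 80.6 nt) and Slc38a1 in replicate 2 (75.4 nt).

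The cationic amino acid transporter Slc7a3 had 58.1 and 54.0 nt from 426 transcripts, and 22.3% of its tails were of 6 to 30 nt. Its quartiles were 31.3 and 108 nt, so its upper quartile was lower than that of Slc38a2 as well. Slc3a2, the heavy chain that carries Slc7 transporters to the cell surface, had 69.2 and 70.1 nt from 235 transcripts. Its partner Slc7a5, which carries large neutral amino acids, had 81.8 nt over 19 transcripts in replicate 1 and 23.7 nt over 17 in replicate 2, with 5 of its 36 tails at 1 to 5 nt, so the pair cannot be ranked. Another partner, Slc7a7, had 70.0 and 78.6 nt. The 6 measured Slc7 symbols had a median of 74.1 nt. Of them, 2 were over 75 nt, Slc7a6 and the non-carrier Slc7a6os, against 51% of all measured protein-coding genes.

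The ion class had the lowest class median with replicates pooled, 64.8 nt over 11 members, of which Slc4a1ap, Slc9a3r1 and Slc9a3r2 are not carriers. In replicate 1, however, the metal transporters were lower (62.9 against 64.3 nt). The sodium-dependent phosphate transporter Slc20a1, which had the most transcripts of all members, had 64.3 and 60.7 nt from 616 transcripts, and 16.4% of its tails were of 6 to 30 nt. Its relative Slc20a2 had 67.0 and 63.8 nt, so the phosphate transporters of the plasma membrane lay over 20 nt under the mitochondrial phosphate carrier Slc25a3 in both replicates. Slc4a5, a sodium bicarbonate cotransporter, had 63.8 and 54.6 nt. Slc9a3r1, a scaffold protein that binds a sodium/proton exchanger and is no carrier itself, had 84.7 and 95.2 nt. Without it and the other 4 members that are not carriers (Slc3a2, Slc4a1ap, Slc7a6os and Slc9a3r2), the Slc25 difference was 9.86 nt, another alternative added after the data were seen.

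The glucose transporters Slc2a1 and Slc2a3 had similar pooled gene tails, 61.6 and 64.1 nt. Slc2a1 had 52.7 and 75.6 nt, and Slc2a3 had 67.0 and 62.8 nt. Their order turned between replicates, so they did not differ beyond their spread. The lactate and pyruvate transporter Slc16a1 had 100.1 and 71.7 nt, so its replicates differed by over 25 nt. The 7 members of this class had a median of 70.4 nt.

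Metal transporters had a median of 74.7 nt over 10 members. The zinc importer Slc39a4 had 85.7 and 107 nt from 36 transcripts, the longest gene tail among the 23 members outside Slc25 with at least 15 transcripts in each replicate. Slc39a10, another zinc importer, had 67.6 and 78.3 nt. The Slc35 family, most of whose members bring nucleotide sugars into the Golgi or endoplasmic reticulum, had a median of 85.1 nt over 13 members. It was 75.4 nt over 5 in replicate 1 and 86.3 nt over 9 in replicate 2. Over 75 nt were 9 of the 13, against 51% of all measured protein-coding genes. None of these members had over 42 transcripts, and the one with most, Slc35f2, had 64.3 and 65.8 nt. Of the carriers of vitamins, nucleosides and lipids (13 members, median 70.2 nt), the nucleoside transporter Slc29a1 had 80.6 and 90.9 nt from 107 transcripts. At the short end, picked after their values were seen, the fatty acid transporter Slc27a2 had 38.4 and 42.4 nt from 35 transcripts, with 11 tails of 6 to 30 nt. The thiamine transporter Slc19a2 had 34.6 and 43.2 nt from 17 transcripts, with 8 such tails. Since both were picked for low values in these same replicates, their replicate values are no separate support. By replicate, Slc27a2 had 9 and 26 transcripts and Slc19a2 had 8 and 9, mostly under the minimum of 10.

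Base composition was read from the same tails. A base other than A was present in 9.60% (8.23 to 11.2) of Slc25 tails and 11.9% (11 to 12.9) of the other member tails, 11.1% and 13.6% in replicate 1 and 8.54% and 10.9% in replicate 2. Tails with a T were 5.12% and 8.07%, whereas tails with C were 2.98% and 3.08% and tails with G 2.14% and 2.15%, so the difference lay in T. Among tails of 61 to 120 nt, a selection added after the data were seen, non-A bases were in 9.78% of Slc25 and 9.41% of other member tails, a difference of −0.019 percentage points in replicate 1 and 0.389 in replicate 2, so the difference between the groups was not seen there. Short tails ended in T more often than long ones in both groups. Of tails of 6 to 30 nt, 12 of 82 Slc25 tails (14.6%, 8.57 to 23.9) and 117 of 611 other member tails (19.1%, 16.2 to 22.5) ended in T, as do those of Slc25a11, Slc38a4 and Slc39a10 shown above, against 2.21% and 1.78% at 61 to 120 nt. In short tails the Slc25 share minus that of the others was −0.904 percentage points in replicate 1 and −6.63 in replicate 2. It rested on 5 and 7 Slc25 tails that ended in T. The intervals of the groups overlapped, but they cover counting error only, so no firm difference can be read at this depth.

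How well a gene tail was fixed depended on depth. Over the 44 members that reached 10 transcripts in both replicates, replicate values had a Spearman rho of 0.08, against 0.50 over 3974 other genes with the same minimum, and the median gap between a member's replicates was 15.2 nt. At 15 or more in both, rho was 0.34 over 31 members and 0.57 over 2982 other genes. With at least 30, it was 0.65 over 15 members and 0.67 over 1597 genes. Single members with few transcripts therefore have no firm place in the order, and neighbours in the order mostly do not differ beyond their spread. Just inside the minimum, the 8 members with 10 transcripts had a median of 102 nt, and among them were Slc25a38 at 31.4 nt, Slc35e3 at 35.9 nt, Slc33a1 at 40.7 nt, Slc25a25 at 113 nt and Slc1a4 at 118 nt. Just outside it, Slc30a1 and Slc5a5, with 9 transcripts, had 57.7 and 101 nt, and the 92 members with 1 to 9 transcripts had a median tail of 87 nt over their pooled transcripts. None of 875 pseudogenes with transcripts in the table matched a member over at least 200 nt at 95% identity or more.

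Genes of related function that carry other symbols were listed for comparison. Of 13 mitochondrial carriers without an Slc symbol, 5 were measured, with a median of 88.6 nt (79.5 and 96.4 nt by replicate). All 5 were over 75 nt with replicates pooled, where 51% of all measured protein-coding genes passed this length. By replicate this did not hold for Sfxn1 (79.5 and 74.7 nt) and Letm1 (72.9 and 96.4 nt). Ucp2, an inner membrane carrier of the same protein family as Slc25, had 105 and 107 nt from 760 transcripts. Mtch2, an outer membrane relative of the carriers, had 75.2 and 97.0 nt from 84 transcripts. Of 19 other carriers without an Slc symbol, 5 were measured, with a median of 83.5 nt and 3 over 75 nt, of which Mfsd1, a lysosomal transporter, had 80.9 and 90.4 nt.

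Carriers are made in the cytosol and brought to the inner membrane by the TOM and TIM machinery. Of 15 genes of this machinery, 12 were measured, with a median of 80.3 nt. Over 75 nt were 7 of the 12 (58.3%), near the 51% of all measured protein-coding genes. The replicates were far apart, with medians of 97.4 and 75.9 nt. Tomm70a, the receptor that binds carrier precursors, had 62.9 and 64.6 nt from 515 transcripts. Tomm7, a small subunit of the outer membrane channel, had 127 and 111 nt. Tomm5 had 99.1 and 100.4 nt and Tomm20 had 82.9 and 80.2 nt, while Tomm40, the channel itself, had 67.5 and 74.1 nt, Tomm22 had 66.9 and 100.2 nt and Timm13 had 97.5 and 77.6 nt. The measured genes of the machinery ran from 62.9 to 119 nt, a range that overlapped that of the Slc25 carriers.

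The study listed genes that it assigned to degradation dependent on Cnot8, a deadenylase of the Ccr4-Not complex, and 34 annotated members were on that list. It rests on RNA levels, which fell during normal differentiation and were higher in Cnot8 knockout cells, not on measured decay of each gene. Only membership was used, and the list was drawn up by the study with cells of this kind. The 13 measured members on it had gene tails with a median of 78.6 nt, against 72.7 nt for the 78 others. Replicate 1 gave 67.0 and 71.7 nt and replicate 2 gave 86.3 and 73.1 nt, so the direction differed between replicates. Members on the list included Slc2a1, Slc2a3, Slc6a8, Slc25a12, Slc29a1 and Slc39a4, which had gene tails from 61.6 to 94.0 nt.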

How the data were processed

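PAIso-seq reads were made into consensus reads, split by barcode and mapped to mm10 with minimap2 2.17 by the authors. They took the unaligned 3′ bases as tails, discarded reads without a tail and assigned genes with featureCounts 2.0.1. By the paper's methods, sequences with few A among their first bases were also removed, and tails were extended into aligned upstream A runs where needed. These steps can bear on very short tails and on tails with other bases, and their effect on the shares was not tested. The deposited table gives raw counts of A, T, C and G in each tail and of passes per read, without normalization. Reads with at least 7 passes were kept (947620 of 1013675), and genes were placed with GENCODE vM21. Gene tails are geometric means over at least 10 transcripts, so reads of 1 to 5 nt lower them. There is 1 group, so differences were set against the SD of 2 replicates, with no p-values. Wilson intervals cover counting error only, since reads have no molecular identifiers. Members, lists and length classes were chosen with earlier results of these data known. Genes named were, within Slc25 and within the rest, the 6 longest and 6 shortest with at least 15 transcripts in each replicate (30 where 12 members reach it, which neither group did), the deepest of each class, 3 isoform or partner pairs, members with 9 or 10 transcripts (1 is not reported here), and listed genes that reached 30 transcripts in both replicates. Alternatives changed the pass and length minimums, the mean, the minimum of transcripts and the members included. Python 3.11.15, pandas 2.3.3, scipy 1.17.1 and blastn 2.17.0 were used, and gene tails were tested on simulated data.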

Additional observations from a re-analysis of the deposited data

Results flagged for a closer look

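Data outside the comparisons held further tails of the members. Reads with fewer than 7 passes gave 448 more tails of the 91 members (163 in replicate 1 and 285 in replicate 2), with a median of 85.5 nt. Those of Slc25 members had a median of 95 nt over 109 reads and those of the other families 83 nt over 339 reads.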

How the results depend on the processing

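No paired analysis was possible because the data held 1 group, whose 2 replicates have no partner in another group. With members chosen again within each replicate, each replicate alone gave a Slc25 minus other families difference in median gene tail of 11.6 to 22.5 nt, and of −7.58 to −2.06 nt for all members minus other protein-coding genes. The differences in transcript shares were 8.90 to 13.3 percentage points for tails over 90 nt, −2.18 to −0.807 points for tails of 1 to 5 nt and −2.79 to −1.85 points for tails with a non-A base. Among the other alternatives for the Slc25 difference in gene tail, the direction reversed only for annotated transcripts under 2000 nt (−3.35 nt) and over 4000 nt (−2.34 nt), which leave few genes, while its size was 4.82 nt with the arithmetic mean per gene and 15.3 nt at 30 or more transcripts. The difference of all members from other genes was 0.0249 nt with the arithmetic mean per gene and 0 nt with the median per gene, and the cause was not tested. The difference over 90 nt fell to 1.38 points without the 5 members with over 300 transcripts. That in non-A bases became −1.38 points at 15 or more passes, −1.49 points without the first and last base, and 0.364 points in tails of 61 to 120 nt. The difference in tails of 1 to 5 nt, counted over transcripts, kept its direction in all 11 other alternatives. Without those 5 members, however, it was −0.545 points, inside its replicate SD of 0.974. With 2 replicates, an SD is itself poorly known, and members with few transcripts limit every gene value.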
